A study of Mus musculus with 12 samples.

Results

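Rab GTPase genes were taken as all genes whose mouse symbol consists of Rab, a number and at most 1 further letter, and 44 of the 9073 genes in the count table met this rule. The symbol table held 59 such names. The other 15 (Rab3b, Rab9b, Rab17, Rab19, Rab25, Rab26, Rab27b, Rab30, Rab32, Rab39, Rab40b, Rab40c, Rab42, Rab43 and Rab44) had no row and were not analysed here. RNA came from adult dorsal root ganglia (DRG), where sensory neurons have their cell bodies, and the mice were RPL22HA+/+;Advillin-Cre+. In these animals the Cre recombinase, driven by the Advillin promoter in sensory neurons, switches on ribosomal protein L22 with a haemagglutinin (HA) tag. All 4 groups share this genotype. IP shGpr151 and IP control are RNA pulled down with anti-HA antibody from neurons that had received AAV-shGpr151 or AAV-control, and Input shGpr151 and Input control are the lysate RNA of the same treatments. The hairpin carries the name of Gpr151, which encodes a receptor with no known ligand. According to the series design, mice had a sciatic nerve injury before the neurons were cultured, whereas the extraction protocol speaks of ganglia freshly collected. The labels give neither an exact age nor the number of animals behind a sample.

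Rab proteins are small GTPases of the Ras superfamily that give each membrane compartment its identity. Exchange factors load them with GTP, which lets them hold effectors such as tethers and motor adaptors on the membrane, and GTPase-activating proteins switch them off. A prenyl group added by a Rab-specific transferase anchors them, and GDP dissociation inhibitors extract and recycle them. In sensory neurons, whose axons are long, Rab proteins serve synaptic vesicle release, transport of signalling receptors in endosomes, and delivery of membrane to the growing axon tip.

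Promoter sequences are shown for 5 members on which the results below turn. Rab13 and Rab8b passed 1.5-fold between the treatments, and the Golgi genes Rab1a, Rab1b and Rab33b went in opposite directions between pulldown and lysate. They are the 250 bases before the RefSeq start on build GRCm38.p6, which is not the build the counts were made on, written 5′ to 3′ on the gene's strand. Capitals mark GGGCGG (the GC box bound by Sp1), CCAAT and TGACG (part of the cyclic AMP response element), each on either strand. For Rab13 the table lists 2 starts and its first is given.
Rab13, chr3:90213465-90213714 (+ strand): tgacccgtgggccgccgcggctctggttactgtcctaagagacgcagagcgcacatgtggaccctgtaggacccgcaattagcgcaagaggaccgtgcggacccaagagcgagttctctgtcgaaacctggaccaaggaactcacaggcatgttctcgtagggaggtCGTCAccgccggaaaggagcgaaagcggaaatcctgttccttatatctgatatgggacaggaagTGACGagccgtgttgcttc
Rab8b, chr9:66919706-66919955 (- strand): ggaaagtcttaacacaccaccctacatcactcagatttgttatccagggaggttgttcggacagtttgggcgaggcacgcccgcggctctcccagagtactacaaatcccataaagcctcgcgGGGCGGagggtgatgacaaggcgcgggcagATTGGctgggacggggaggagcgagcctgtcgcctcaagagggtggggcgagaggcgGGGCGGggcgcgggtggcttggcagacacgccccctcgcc
Rab1a, chr11:20201162-20201411 (+ strand): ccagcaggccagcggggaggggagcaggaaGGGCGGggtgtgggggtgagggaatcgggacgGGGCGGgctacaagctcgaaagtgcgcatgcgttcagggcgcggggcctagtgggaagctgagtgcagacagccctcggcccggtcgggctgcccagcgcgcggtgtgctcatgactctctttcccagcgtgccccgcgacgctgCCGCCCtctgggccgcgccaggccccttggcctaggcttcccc
Rab1b, chr19:5106997-5107246 (- strand): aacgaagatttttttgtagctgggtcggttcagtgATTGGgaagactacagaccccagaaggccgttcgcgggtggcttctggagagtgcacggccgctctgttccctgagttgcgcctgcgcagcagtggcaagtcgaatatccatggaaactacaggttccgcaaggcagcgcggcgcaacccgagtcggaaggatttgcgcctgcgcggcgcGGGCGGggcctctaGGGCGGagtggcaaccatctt
Rab33b, chr3:51483716-51483965 (+ strand): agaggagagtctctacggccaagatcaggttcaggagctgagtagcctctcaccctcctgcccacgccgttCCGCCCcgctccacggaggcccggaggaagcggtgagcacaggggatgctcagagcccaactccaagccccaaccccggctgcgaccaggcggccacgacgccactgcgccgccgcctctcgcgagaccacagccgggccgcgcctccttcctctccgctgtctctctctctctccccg

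The Rab13 window held 2 TGACG matches and 0 GC boxes, and its GC content was 57.6%. Rab8b held 2 GC boxes and 1 CCAAT match, Rab1b likewise, Rab1a 3 GC boxes and Rab33b 1 GC box. The paralogs Rab1a and Rab1b thus both carried GC boxes, at a GC content of 72.4% and 60.8%. Windows existed for 37 of the 44 members, 46 windows in all. GGGCGG stood in 67.4% of them, against 32.7% of all 32851 windows of the table. TGACG stood in 41.3% against 17.8%, CCAAT in 43.5% against 33.8% and CACGTG, the core of the element bound by the lysosomal regulator TFEB, in 10.9% against 6.02%. TATAAA stood in 4.35% against 12.4%, the full element TGACGTCA, which overlaps TGACG, in 2.17% against 1.55%, CGGAAG (bound by ETS factors) in 17.4% against 13.6%, and a motif of NRF1 in 10.9% against 4.98%. All 8 motifs were searched on both strands. These matches are a description of letters, and the windows of all genes include noncoding genes.

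Each group had 3 columns of counts. The columns of a group summed to 3285258 counts in IP shGpr151, 4245486 in IP control, 6148538 in Input shGpr151 and 6332991 in Input control, and single columns held 1094523 to 2111544 counts. Within a group the 3 column totals were nearly equal. Their range was 0.126% of their mean in IP shGpr151, 0.057% in IP control, 0.038% in Input shGpr151 and 0.0414% in Input control. Over all genes, chi-square per degree of freedom between the 3 columns of a group was 1.00 to 1.05, and over the 44 Rab genes 0.863 to 1.01. Between columns of different groups it was 1.95 to 194.8 per pair, over genes with at least 20 counts in the pair. Over genes with at least 200 counts in the group, the columns of a group reached 1.32. The 3 columns were hence summed, each group is treated as a single library, and no difference below has a replicate check. Gpr151 itself had 250 counts in IP shGpr151 and 314 in IP control. The log2 ratio was -0.0019 with an interval of -0.25 to 0.24. Input shGpr151 had 13 counts and Input control 24, at -0.86 with an interval of -1.96 to 0.17. The pulldown thus showed no lower level of the target under the shGpr151 label, so every shGpr151 library below is named by its label alone, and each direction drawn from it is subject to that. Levels are in CPM, that is, scaled to a common library total. Ratios are of summed counts after TMM scaling (edgeR's trimmed mean of log ratios), with exact 95% intervals. The intervals treat each read as a separate molecule, which PCR copies are not. They cover counting error alone, and are too narrow to the extent that reads are copies. A gene is said to be past 1.5-fold where its ratio exceeds 1.5 either way and its interval excludes no difference.

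Of the 44 members, 42 passed the filter on low counts. Rab36 had 4 counts in IP shGpr151, 8 in IP control and 8 in each Input library, and Rab37 had 17 in IP shGpr151, 13 in IP control, 11 in Input shGpr151 and 4 in Input control. Summed over the 44 genes, Rab transcripts made up 3244 CPM in IP shGpr151, 3180 CPM in IP control, 1051 CPM in Input shGpr151 and 1138 CPM in Input control. Rab33b alone held much of the Input counts. Without it the sums were 3136 CPM in IP shGpr151, 3097 in IP control, 489 in Input shGpr151 and 478 in Input control. In bulk RNA, fewer cells of a type and less RNA per cell cannot be told apart.

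**Figure D1:**
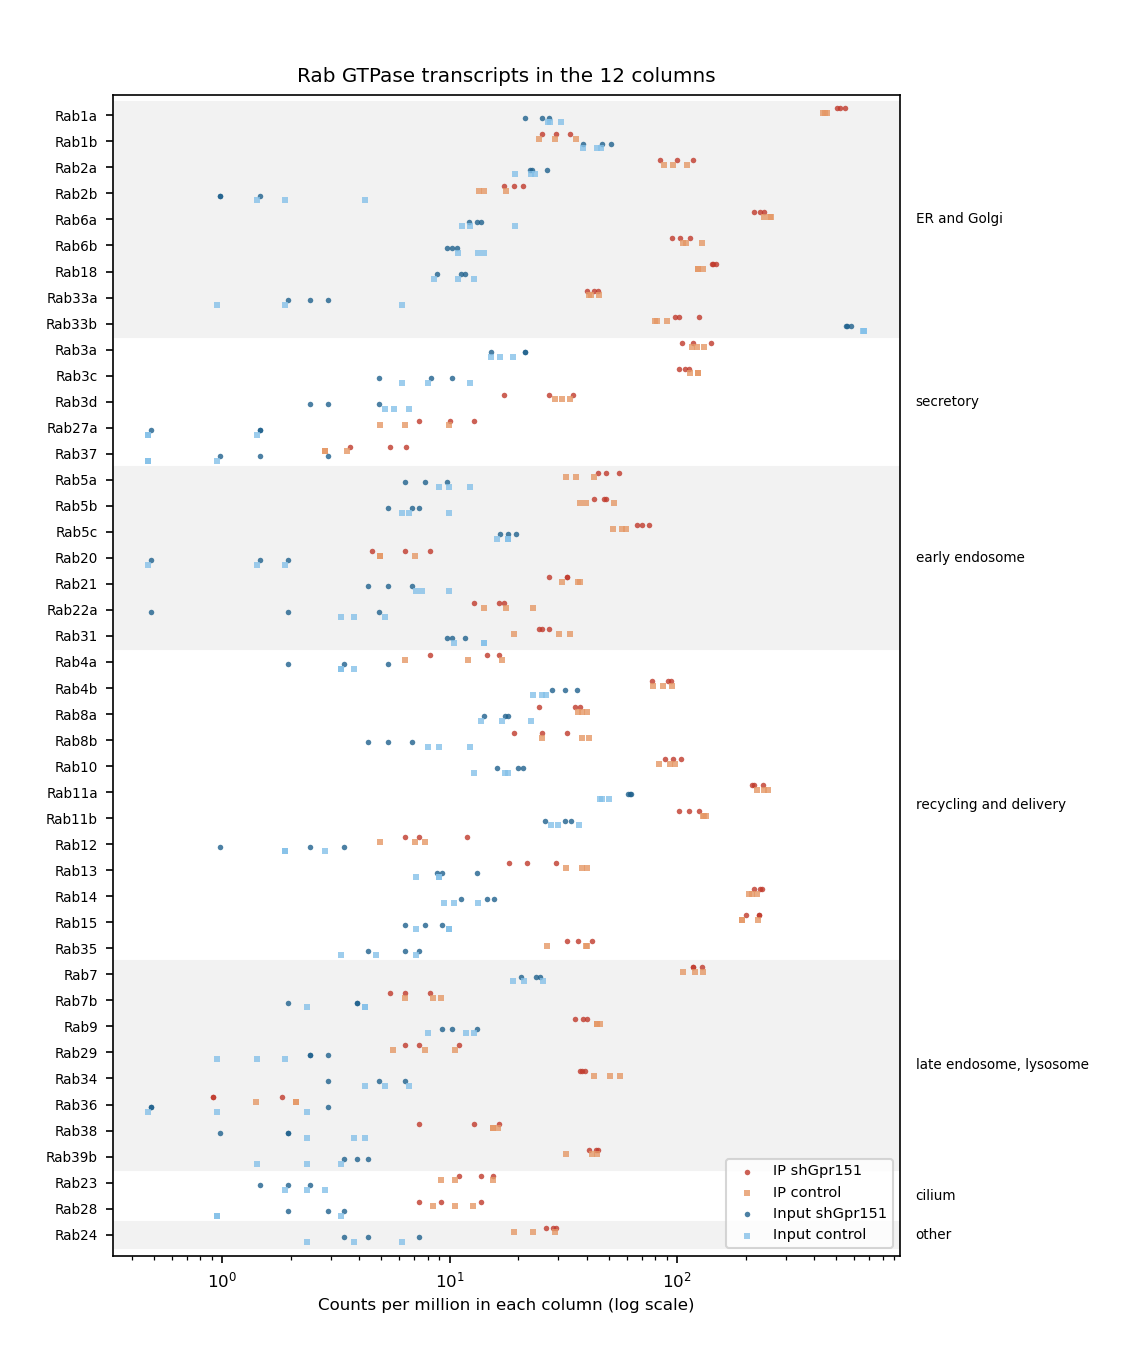
CPM of each Rab gene (rows, by role) in each of the 12 columns on a log axis, 3 points per group. The IP points lie right of the Input points for most genes, Rab1b and Rab33b lie the other way, the treatments mostly overlap, and points at the left, with few counts, spread most. Rab36 and Rab37, which were not tested, are drawn too.

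The pulldown was compared with the lysate to see which Rab transcripts were retained with tagged ribosomes. On the TMM scale Rab1a, Rab6a, Rab6b, Rab18 and Rab33a of the Golgi and ER, Rab3c of synaptic vesicles and Rab14 and Rab15 of endosomes were higher in IP. Rab33b and Rab1b were lower on that scale and on library totals, while Rab8a, Rab31 and Rab7b were lower on the TMM scale and higher on totals. In the libraries labelled shGpr151, 13 of the 42 tested members were past 1.5-fold higher in IP and 7 lower, against backgrounds of 32% higher and 31.5% lower among all 8312 tested genes. In control 12 were higher and 5 lower, against 30.5% and 30.8%. The share higher, 31% of members in shGpr151 and 28.6% in control, was thus near that of all genes, and the share lower, 16.7% in shGpr151 and 11.9% in control, was below it. The members' median log2 ratio was 0.28 in shGpr151 and 0.20 in control, beside 0.096 in shGpr151 and 0.054 in control over all tested genes. In both treatments 10 members were higher (Rab1a, Rab3c, Rab6a, Rab6b, Rab14, Rab15, Rab18, Rab33a, Rab34 and Rab39b) and the same 5 lower. The TMM scale shifts every ratio by -2.20 in shGpr151 and -2.18 in control relative to library totals. On totals alone, 40 of the 42 members were past 1.5-fold higher in both treatments, as were 80% of tested genes in shGpr151 and 81.5% in control, with Rab33b and Rab1b below 0, and the members' median was 2.48 in shGpr151 and 2.37 in control. Directions between IP and Input below are on the TMM scale, and on totals every lower member except Rab33b and Rab1b turns to higher.

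The quasi-likelihood test of edgeR, run over the 12 columns and hence comparing these libraries rather than the conditions, called 14 members higher and 9 lower in shGpr151, against 33.6% and 33% of tested genes. In control it called 12 higher and 7 lower, against 32.5% and 32.8%. Sensory neuron markers had a median log2 ratio of 2.51 in shGpr151 and 1.82 in control, beside 0.28 and 0.20 for the Rab members. Of the 11 markers, among them Avil, Isl1, Prph, Nefl and Tubb3, all were in the table and 10 were past 1.5-fold higher in IP in each treatment. Their summed level was 15980 CPM in IP shGpr151, 16590 in IP control, 1252 in Input shGpr151 and 1055 in Input control. Of 8 macrophage markers 7 were lower and 1 higher, and their sum was 455 CPM in IP shGpr151, 431 in IP control, 359 in Input shGpr151 and 319 in Input control. Satellite glia, Schwann cell and fibroblast markers were also present in IP, with sums of 2894, 1210 and 709 CPM in IP shGpr151 and 2829, 1295 and 547 CPM in IP control, against 831, 170 and 74.7 CPM in Input shGpr151 and 904, 190 and 92.4 CPM in Input control. On the TMM scale 3 satellite glia markers were past 1.5-fold higher and 2 lower in shGpr151, and 2 and 3 in control. For Schwann cells 2 were higher and 2 lower in each, and for fibroblasts 3 were higher in shGpr151 and 2 in control, with 0 lower. Of their markers, Prx, Ncmap, Cldn19 and Pdgfra had no row, nor had Pecam1 and Kdr of endothelium, whose other 2 markers summed to 13.7 CPM in IP shGpr151, 8.01 in IP control, 1.95 in Input shGpr151 and 2.37 in Input control. The part of cell type mixture in the Rab ratios was not tested.

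**Figure D2:**
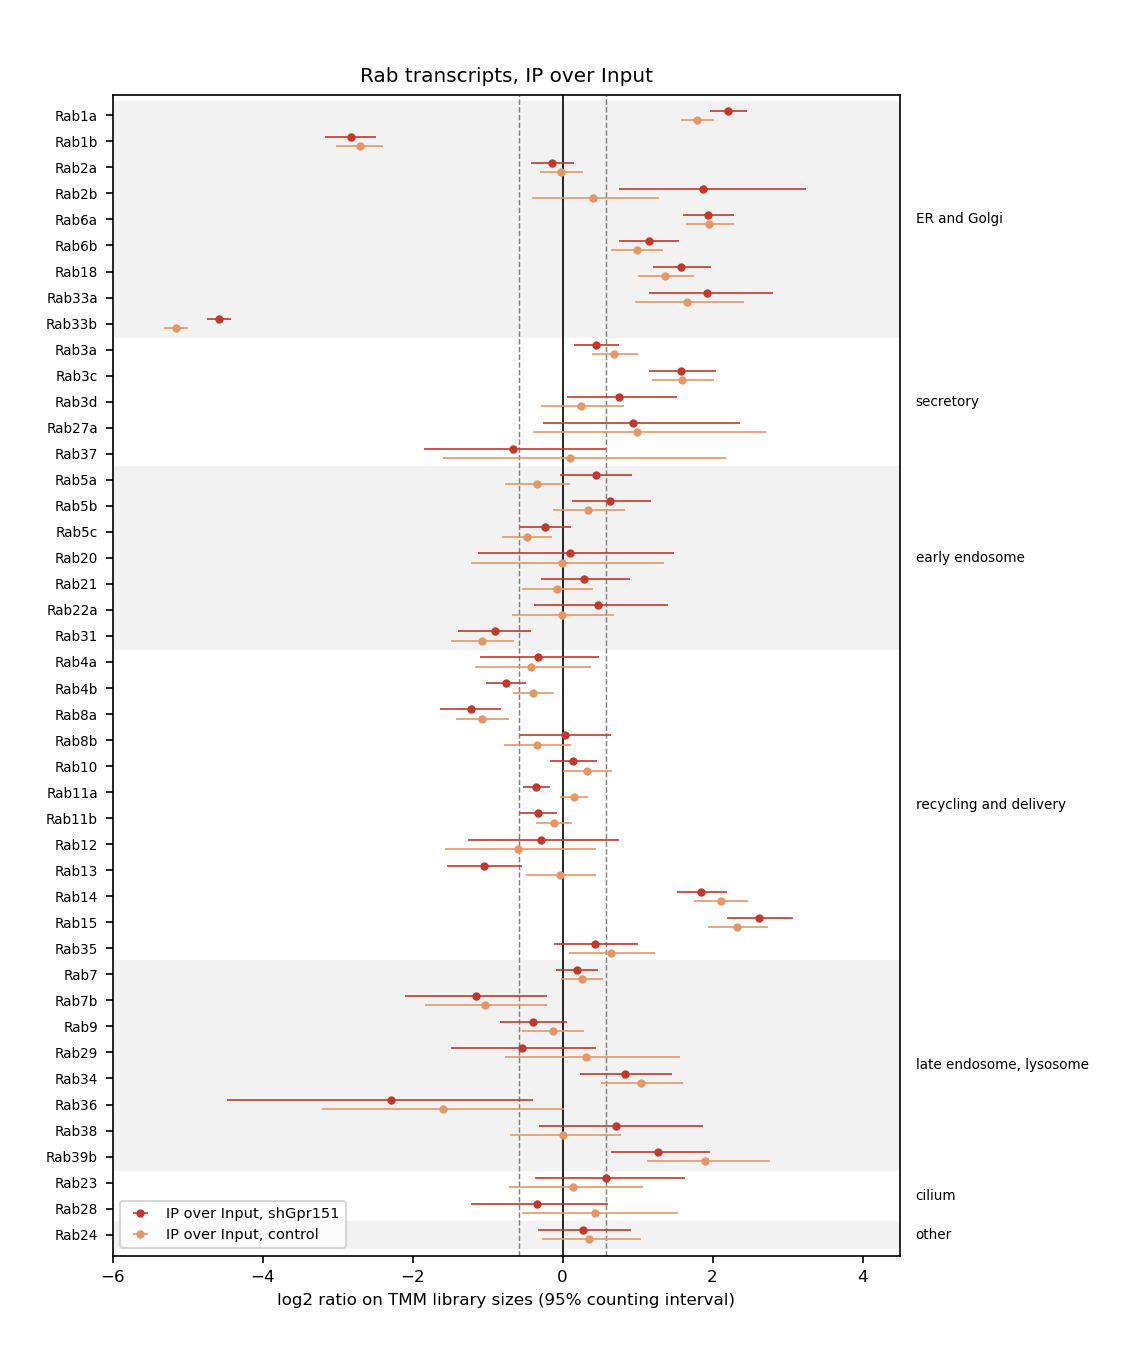
Log2 ratio of IP over Input for each Rab gene on TMM library sizes, with 95% counting intervals, for the libraries labelled shGpr151 and for control; dashed lines mark 1.5-fold. Rab15 lies furthest right, at 2.61 in shGpr151 and 2.33 in control, and Rab33b furthest left, at -4.58 in shGpr151 and -5.16 in control.

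Among the Rab genes of endoplasmic reticulum (ER) and Golgi traffic, 6 of 9 were past 1.5-fold higher in shGpr151 and 5 of 9 in control, and 2 were lower in each. The backgrounds over all tested genes, here and for each class below, were 32% higher and 31.5% lower in shGpr151. In control they were 30.5% higher and 30.8% lower. Rab1a, which drives transport of ER-derived vesicles to the Golgi, had 599, 569 and 550 counts in IP shGpr151 and 629, 647 and 616 in IP control. The Input columns held 56, 52 and 44 in shGpr151 and 58, 65 and 57 in control, far below every IP column although the Input libraries were deeper. In CPM this was 523 (498 to 548) in IP shGpr151, 446 (426 to 466) in IP control, 24.7 (20.9 to 29.0) in Input shGpr151 and 28.4 (24.4 to 32.9) in Input control. Its log2 ratio on the TMM scale was 2.21 (1.97 to 2.46) in shGpr151 and 1.80 (1.57 to 2.02) in control. Rab6a, which acts in retrograde and post-Golgi transport, had 753 counts in IP shGpr151, 1070 in IP control, 80 in Input shGpr151 and 91 in Input control, ratios of 1.94 (1.61 to 2.29) in shGpr151 and 1.96 (1.65 to 2.28) in control. Its neuronally enriched paralog Rab6b had 1.15 (0.76 to 1.56) in shGpr151 and 0.99 (0.64 to 1.34) in control. Rab18, linked to lipid droplets and the ER, had 1.58 (1.20 to 1.98) in shGpr151 and 1.37 (1.01 to 1.76) in control. Rab33a had 140 counts in IP shGpr151, 181 in IP control, 15 in Input shGpr151 and 19 in Input control, with ratios of 1.93 (1.16 to 2.81) in shGpr151 and 1.65 (0.97 to 2.42) in control. Rab2a, which acts between ER and Golgi, had -0.14 (-0.42 to 0.15) in shGpr151 and -0.02 (-0.30 to 0.27) in control, and neither interval excludes 0. Its paralog Rab2b had 63 counts in IP shGpr151, 64 in IP control, 7 in Input shGpr151 and 16 in Input control, with 1.88 (0.75 to 3.25) in shGpr151 and 0.40 (-0.41 to 1.29) in control.

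Rab33b, a Golgi Rab that binds the autophagy protein Atg16l1, had more counts in Input than in IP. Gene counts alone do not show whether the reads assigned to it came from its own transcript, here or for Rin1 and Unc13d below. It had 136, 107 and 111 counts in IP shGpr151 and 113, 127 and 115 in IP control, against 1138, 1192 and 1126 in Input shGpr151 and 1398, 1401 and 1381 in Input control. Every Input column lay above every IP column. In CPM it was 108 (96.8 to 120) in IP shGpr151, 83.6 (75.1 to 92.8) in IP control, 562 (544 to 581) in Input shGpr151 and 660.0 (640 to 680) in Input control, so on library totals it was 5.22-fold lower in IP in shGpr151 and 7.89-fold lower in control. On the TMM scale the log2 ratios were -4.58 (-4.74 to -4.42) in shGpr151 and -5.16 (-5.32 to -5.00) in control. Of the tested genes, 4.02% in shGpr151 and 3.62% in control had a ratio as low or lower. Rab1b, the paralog of Rab1a, was the other member lower in IP on both scales. It had 37, 32 and 28 counts in IP shGpr151 and 35, 51 and 41 in IP control, against 79, 105 and 96 in Input shGpr151 and 94, 81 and 98 in Input control. Its ratios were -2.82 (-3.17 to -2.48) in shGpr151 and -2.70 (-3.02 to -2.39) in control. No source used here says how reads shared by near-identical copies were divided, and values of close Rab paralogs are uncertain to that extent. Whether strand was used in counting is likewise not given.

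Of the secretory and synaptic vesicle class, 5 of 8 genes were listed and 4 tested, and 2 of the 4 were past 1.5-fold higher in IP in each treatment. Rab3a, the main Rab of synaptic vesicles, had 128, 154 and 115 counts in IP shGpr151, 186, 164 and 173 in IP control, 44, 31 and 44 in Input shGpr151 and 40, 32 and 35 in Input control. Its ratio was 0.45 (0.15 to 0.75) in shGpr151 and 0.69 (0.39 to 1.00) in control. The value in control passed 1.5-fold and that in shGpr151 did not. The ratio in shGpr151 minus that in control was -0.25 (-0.67 to 0.18), so the treatments were not shown to differ. Rab3c, found on the same vesicles, had 353 counts in IP shGpr151, 510 in IP control, 48 in Input shGpr151 and 56 in Input control, with ratios of 1.59 (1.15 to 2.05) in shGpr151 and 1.59 (1.19 to 2.01) in control. Rab3d had 0.76 (0.06 to 1.52) in shGpr151 and 0.25 (-0.29 to 0.81) in control. Rab27a, which docks secretory granules, had 33 counts in IP shGpr151, 30 in IP control, 7 in Input shGpr151 and 5 in Input control, and its intervals of -0.26 to 2.37 in shGpr151 and -0.39 to 2.71 in control include 0.

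In the early endosome class 1 of 7 tested genes was higher and 1 lower in shGpr151, and 0 and 1 in control. The isoforms Rab5a, Rab5b and Rab5c, which control fusion of early endosomes and carry signalling receptors after uptake, had ratios of 0.44, 0.63 and -0.23 in shGpr151 and -0.34, 0.34 and -0.48 in control. Of these values Rab5b in shGpr151 passed 1.5-fold (0.12 to 1.17). For Rab5b the ratio in shGpr151 minus that in control was 0.29 (-0.39 to 0.97), an interval that includes 0. Rab31, which acts between the trans-Golgi network and endosomes, had 85 counts in IP shGpr151, 118 in IP control, 65 in Input shGpr151 and 82 in Input control, with ratios of -0.91 (-1.39 to -0.42) in shGpr151 and -1.07 (-1.49 to -0.65) in control. Rab20, Rab21 and Rab22a had from 8 to 149 counts per library, and no ratio of theirs passed 1.5-fold.

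In the class of recycling and polarized delivery 2 of 12 genes were higher and 3 lower in shGpr151, and 3 and 1 in control. Rab15, a neuronal Rab of endosomal recycling, had 219, 250 and 251 counts in IP shGpr151 and 322, 273 and 274 in IP control, against 16, 19 and 13 in Input shGpr151 and 21, 21 and 15 in Input control. Its ratios of 2.61 (2.19 to 3.07) in shGpr151 and 2.33 (1.94 to 2.75) in control were the highest of all tested members. Rab14, which acts between endosomes and the Golgi, had 749 counts in IP shGpr151, 913 in IP control, 85 in Input shGpr151 and 70 in Input control, with ratios of 1.85 (1.52 to 2.19) in shGpr151 and 2.11 (1.76 to 2.48) in control. Rab8a, which delivers vesicles to the plasma membrane and cilium, was lower in IP, with 107 counts in IP shGpr151, 163 in IP control, 102 in Input shGpr151 and 113 in Input control, at -1.22 (-1.63 to -0.82) in shGpr151 and -1.07 (-1.42 to -0.71) in control. Rab10, which serves axonal membrane addition, had 0.14 (-0.17 to 0.46) in shGpr151 and 0.33 (0.01 to 0.65) in control. Rab11a, the main Rab of recycling endosomes, had 233, 238 and 262 counts in IP shGpr151, 318, 341 and 354 in IP control, 127, 125 and 129 in Input shGpr151 and 99, 106 and 97 in Input control, and its ratios were -0.35 (-0.53 to -0.17) in shGpr151 and 0.15 (-0.04 to 0.34) in control. Rab35 had 0.43 (-0.11 to 1.00) in shGpr151 and passed 1.5-fold in control, at 0.64 (0.08 to 1.24). Rab4b, an early recycling Rab, passed it in shGpr151, at -0.75 (-1.02 to -0.48), and had -0.39 (-0.66 to -0.11) in control. The ratio in shGpr151 minus that in control was -0.21 (-0.98 to 0.55) for Rab35 and -0.36 (-0.74 to 0.01) for Rab4b. Both intervals include 0. Rab11b, Rab4a and Rab12 lay between -0.60 and -0.12 in the 2 treatments and did not pass 1.5-fold.

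In the class of late endosomes, lysosomes and related organelles 2 of 7 tested genes, Rab34 and Rab39b, were higher in each treatment. Rab7b was the 1 lower gene in each. Every Rab gene was placed in 1 role class only, and the class counts depend on that choice. Rab7, which moves late endosomes and retrograde signals along axons, had 128, 128 and 141 counts in IP shGpr151, 170, 183 and 150 in IP control, 49, 42 and 51 in Input shGpr151 and 54, 40 and 45 in Input control. Its ratios were 0.19 (-0.09 to 0.48) in shGpr151 and 0.26 (-0.02 to 0.54) in control, and neither passed 1.5-fold. Rab7b had 22 counts in IP shGpr151, 34 in IP control, 20 in Input shGpr151 and 23 in Input control and was lower, at -1.16 (-2.10 to -0.21) in shGpr151 and -1.03 (-1.84 to -0.20) in control. Rab39b, a neuronal Rab whose human gene is linked to intellectual disability, had 142 counts in IP shGpr151, 169 in IP control, 24 in Input shGpr151 and 15 in Input control, with ratios of 1.27 (0.64 to 1.96) in shGpr151 and 1.90 (1.13 to 2.76) in control. Rab34 had 0.83 (0.24 to 1.46) in shGpr151 and 1.04 (0.51 to 1.61) in control, whereas Rab9, which returns mannose 6-phosphate receptors to the Golgi, had -0.39 (-0.83 to 0.06) in shGpr151 and -0.13 (-0.53 to 0.29) in control. Rab38, of lysosome-related organelles, and Rab29, which recruits the kinase LRRK2, had 9 to 67 counts per library and did not pass 1.5-fold. The ciliary genes Rab23, an antagonist of Hedgehog signalling, and Rab28 had 11 to 50 counts per library, and Rab24, linked to autophagy, 26 to 101, and none of them passed 1.5-fold.

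Shares within a subfamily of the same number do not depend on the scaling of libraries, and 10 subfamilies had at least 2 listed members. Rab1a held 94.7% (93.5 to 95.7, exact binomial interval) of Rab1 counts in IP shGpr151 and 93.7% (92.6 to 94.7) in IP control, against 35.2% (30.7 to 39.9) in Input shGpr151 and 39.7% (35.2 to 44.4) in Input control. Pulldown and lysate thus did not overlap, and the treatments did within each. Rab33a held 28.3% (24.4 to 32.5) of Rab33 counts in IP shGpr151 and 33.8% (29.8 to 38.0) in IP control, against 0.432% (0.242 to 0.712) in Input shGpr151 and 0.453% (0.273 to 0.706) in Input control. The share of Rab6a within Rab6 was higher in IP, with 68.8% in both IP libraries against 55.9% (47.4 to 64.2) in Input shGpr151 and 52.9% (45.2 to 60.6) in Input control. Rab8a went the other way, with 55.7% (48.4 to 62.9) of Rab8 counts in IP shGpr151 and 52.4% (46.7 to 58.1) in IP control, against 75% (66.9 to 82.0) in Input shGpr151 and 64.6% (57.0 to 71.6) in Input control, and the control intervals overlap. Rab3c held 42.2% of Rab3 counts in IP shGpr151 and 43.7% in IP control, against 25.5% in Input shGpr151 and 28.0% in Input control. For Rab4a and Rab4b the intervals of all 4 libraries overlapped, with Rab4a at 10% to 13.0%. For Rab11a and Rab11b the share of Rab11a was 66.4% in IP shGpr151, 64.4% in IP control, 66.7% (62.7 to 70.6) in Input shGpr151 and 60.2% (55.7 to 64.5) in Input control. Between the treatments in Input, the log2 ratio of Rab11a to Rab11b differed by 0.41 (0.05 to 0.77), that of Rab8a to Rab8b by 0.72 (0.0026 to 1.44) and that of Rab3a to Rab3d by 0.97 (0.11 to 1.83), all higher in Input shGpr151. The counting intervals of the other 9 pairs included 0.

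**Figure D3:**
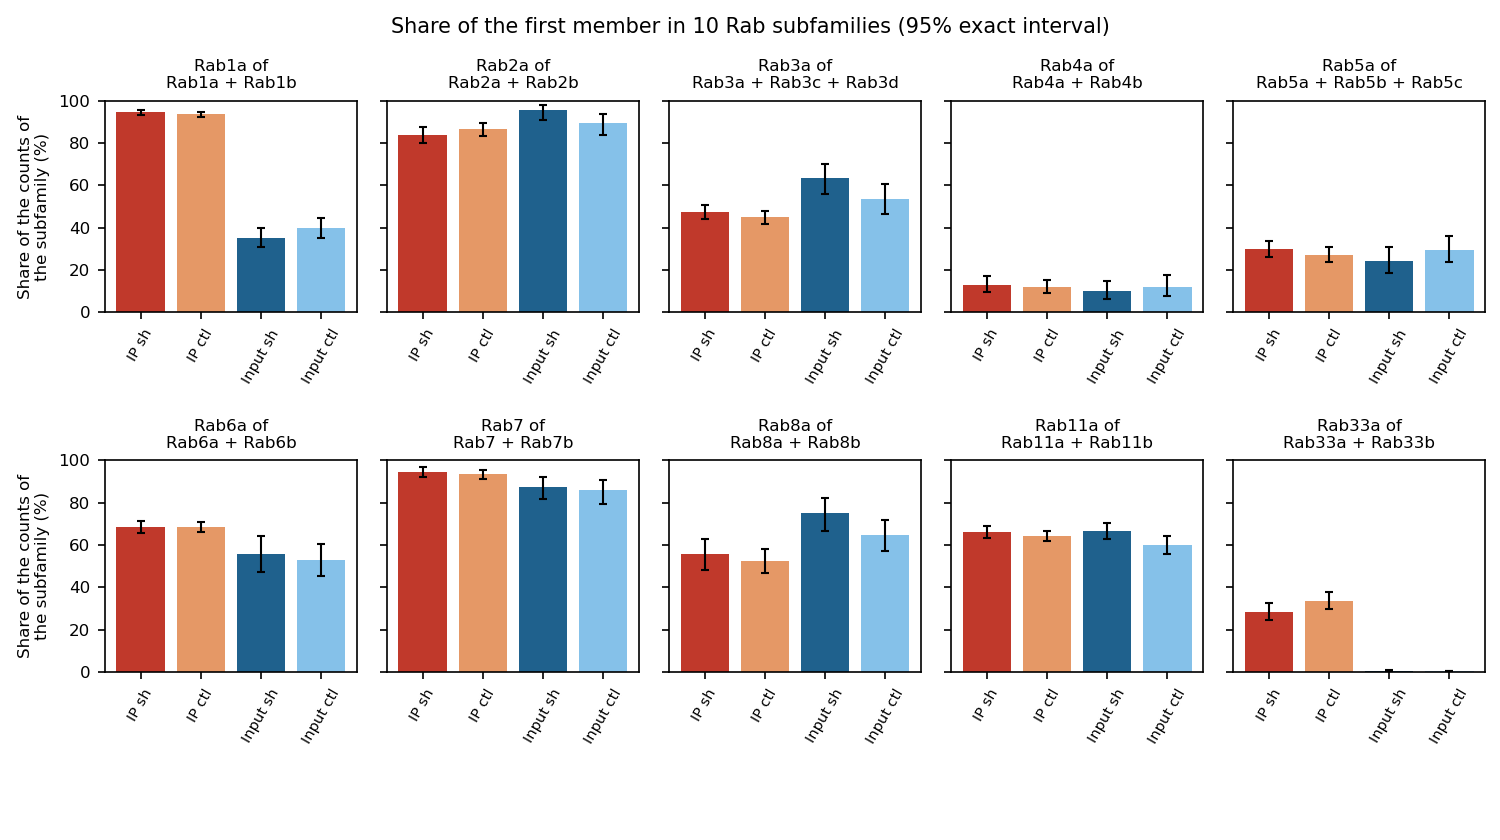
Share of the counts of 10 Rab subfamilies held by their first member in each of the 4 libraries (sh, shGpr151; ctl, control), with exact 95% binomial intervals. The IP bars stand far above the Input bars for Rab1a and Rab33a.

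The IP libraries labelled shGpr151 and control were compared to see which ribosome-bound Rab transcripts differed with the hairpin. Rab13, which delivers vesicles to cell junctions and to neurite tips, was lower in IP shGpr151 and was the member past 1.5-fold, 1 of 42 lower and 0 higher, against backgrounds of 1.08% and 2.29% of tested genes. Rab13 (ENSMUSG00000027935) had 32, 24 and 20 counts in IP shGpr151 and 46, 54 and 57 in IP control. In CPM this was 23.1 (18.2 to 29.0) in IP shGpr151 and 37.0 (31.4 to 43.2) in IP control. The log2 ratio was -0.72 (-1.13 to -0.32), a lower level by 1.65-fold. It ranged from -0.94 to -0.60 when any 1 of the 6 columns was left out and stayed past 1.5-fold. Columns of a group differ by little more than counting noise, so here and below leaving 1 out is no replicate check. The members' median was -0.021, beside 0.0033 over all tested genes. The counting interval lay within 1.5-fold either way for 22 of the 42 members, against 49.6% of all tested genes. Among these members were Rab1a, Rab3a, Rab6a, Rab7, Rab11a, Rab14 and Rab15. The interval reached past 1.5-fold for the other 20. Of the cell type markers, 1 of macrophages passed 1.5-fold, higher in IP shGpr151, and none of neurons or glia.

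edgeR on the columns called Rab13 lower and Rab1a and Rab33b higher, 1 and 2 of 42, against 4.97% and 3.72% of tested genes. Rab1a had a log2 ratio of 0.19 (0.09 to 0.28) and Rab33b, with 354 counts in IP shGpr151 and 355 in IP control, 0.32 (0.11 to 0.54). With 1 column left out, the call of Rab13 ended without the third column of IP shGpr151 and held otherwise. The call of Rab1a held without the third column of IP shGpr151 or the second of IP control and ended in the other 4 cases, and that of Rab33b held without the second column of IP shGpr151 alone. With RLE size factors the call of Rab33b ended as well. DESeq2 called 0 of the 14 members to which it gave an adjusted p, Rab13 not among them, against 18.9% of all genes with one. It had 5 of 42 members at an unadjusted p under 0.05, against 12% of tested genes. The counting interval excluded 0 for 11 members, against 20.1% of tested genes. Rab8b, close in sequence to Rab8a, had 85 counts in IP shGpr151 and 148 in IP control, a ratio of -0.47 (-0.88 to -0.08) that did not pass 1.5-fold. It did so at -0.70 without the first column of IP shGpr151, and also without the second column of IP control. Rab34 had -0.42 (-0.75 to -0.10), Rab5a 0.37 (0.05 to 0.70) and Rab5c 0.28 (0.02 to 0.55), none past 1.5-fold. Rab3a had -0.07 (-0.26 to 0.12), Rab3c -0.20 (-0.40 to -0.01), Rab6a -0.18 (-0.32 to -0.04) and Rab7 -0.01 (-0.21 to 0.18).

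The Input libraries compare the whole lysate. Rab8b was lower in Input shGpr151, 1 of 42 members lower and 0 higher, against backgrounds of 4.78% and 4.32% of tested genes. Its columns held 9, 11 and 14 counts in Input shGpr151 and 17, 26 and 19 in Input control, and its ratio was -0.85 (-1.49 to -0.22), a lower level by 1.80-fold. Without the second column of Input control the ratio was -0.65 and its interval reached 0. Leaving out any of the other 5 columns added 1 further member, a different gene each time (Rab2b, Rab3d, Rab21, Rab22a or Rab38). The members' median was -0.048, beside -0.066 over all tested genes. At 7 to 3456 counts per member in Input shGpr151, the interval lay within 1.5-fold for 12 of 42 members. Over all tested genes that share was 21.8%. A 1.5-fold difference was thus not excluded for the other 30 members. edgeR called Rab8b and Rab33b lower and Rab11a higher, against 8.66% and 8.31% of tested genes. Rab11a had 381 counts in Input shGpr151 and 302 in Input control, a ratio of 0.36 (0.13 to 0.58), and Rab33b had 3456 in Input shGpr151 and 4180 in Input control, a ratio of -0.25 (-0.32 to -0.19). With 1 column left out, the call of Rab33b held in all 6 cases, that of Rab11a ended without the third column of Input control, and that of Rab8b held in 2 cases, without the third column of Input shGpr151 or the first of Input control. The call of Rab8b also ended with RLE size factors, with total counts and with no filter. DESeq2 called 1 member higher and 1 lower of the 29 with an adjusted p, against 12.8% and 10.4% of all genes with one. Rab8b had an adjusted p of 0.091 in DESeq2 and was not called. Of the cell type markers 1 of neurons and 2 of satellite glia passed 1.5-fold, all lower in Input shGpr151, and their part in the Rab ratios was not tested. Rab13 had 19, 18 and 27 counts in Input shGpr151 and 19, 19 and 15 in Input control, a ratio of 0.29 (-0.25 to 0.85), and Rab3a and Rab7 had 0.17 (-0.21 to 0.56) and 0.05 (-0.30 to 0.40).

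**Figure D4:**
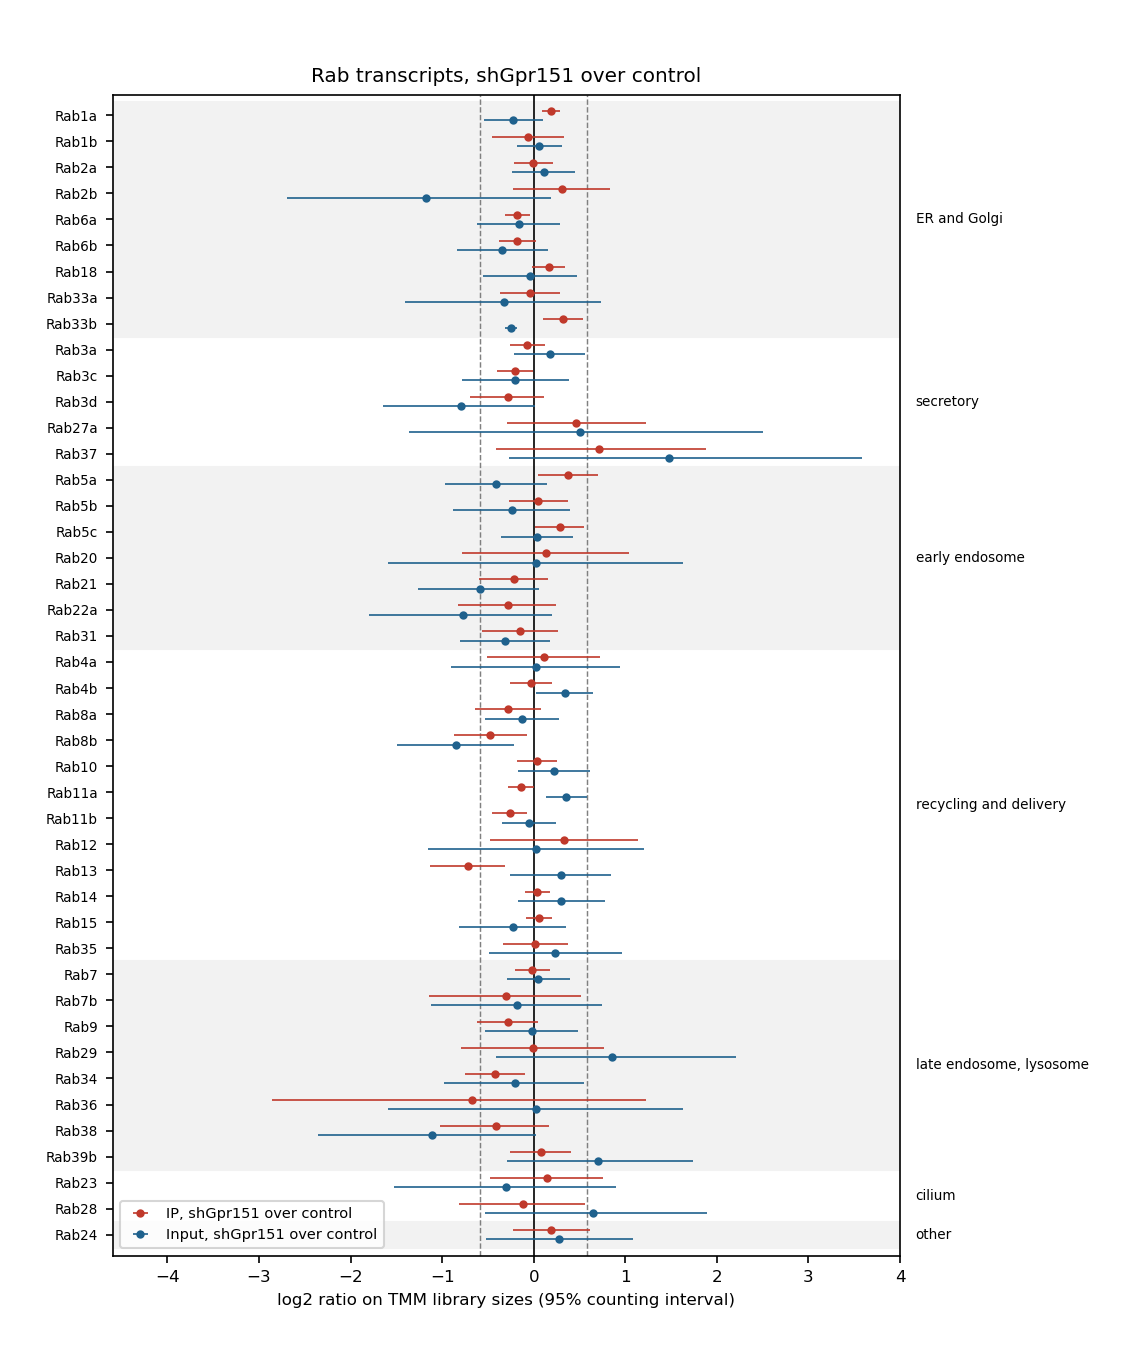
Log2 ratio of the library labelled shGpr151 over control for each Rab gene, in IP and in Input, on TMM library sizes with 95% counting intervals; dashed lines mark 1.5-fold. Rab13 in IP (-0.72) and Rab8b in Input (-0.85) pass the line with an interval that excludes 0, and the Input interval is the narrower one for Rab33b and Rab1b.

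The hairpin ratio in IP minus that in Input was called by edgeR for 3 of 42 members, 1 higher and 2 lower, against 5.41% and 8.82% of tested genes. For Rab13 the difference was -1.01 (-1.67 to -0.36), for Rab11a -0.50 (-0.75 to -0.24) and for Rab33b 0.58 (0.35 to 0.80). Set out by treatment, Rab13 had an IP over Input ratio of -1.04 (-1.54 to -0.54) in shGpr151 and -0.03 (-0.49 to 0.45) in control. Rab1a had 0.41 (0.09 to 0.74), Rab5a 0.78 (0.16 to 1.40) and Rab2b 1.48 (0.10 to 2.85), none called. Rab8b had 0.37 (-0.34 to 1.09), so its ratios in IP and Input were not shown to differ. DESeq2 called 1 member higher and 2 lower of the 29 with an adjusted p, against 5.92% and 14.1% of all genes with one, and Rab13 had an adjusted p of 0.0441. Without the third column of IP shGpr151, of Input shGpr151 or of Input control, the edgeR call of Rab13 ended.

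Genes that load, switch off, recycle or bind Rab proteins were described beside them. Between the IP libraries 2.29% of all tested genes passed 1.5-fold higher in shGpr151 and 1.08% lower. Between the Input libraries 4.32% passed higher and 4.78% lower. Of 8 tested genes of prenylation and membrane recycling, 0 passed 1.5-fold between the IP libraries and 3 between the Input libraries. Rabggtb, the catalytic subunit of the Rab prenyl transferase, had 77 counts in Input shGpr151 and 48 in Input control, a ratio of 0.70 (0.16 to 1.25), while its partner subunit Rabggta had 49 in Input shGpr151 and 92 in Input control, a ratio of -0.89 (-1.42 to -0.37). Rabif, a chaperone of Rab proteins that carry no nucleotide, had 106 in Input shGpr151 and 71 in Input control, at 0.60 (0.15 to 1.05). Of 20 tested exchange factors 1 passed in IP, Mon1b, part of the Rab7 exchange factor, with 45 counts in IP shGpr151 and 88 in IP control, -0.64 (-1.19 to -0.11), and 0 in Input. Of 14 tested subunits of the TRAPP complex, an exchange factor for Rab1, 2 were higher in IP shGpr151, Trappc8 with 141 counts in IP shGpr151 and 102 in IP control at 0.79 (0.42 to 1.18) and Trappc11 with 68 in IP shGpr151 and 50 in IP control at 0.77 (0.22 to 1.33), and 0 passed in Input. Of 19 tested GTPase-activating proteins 1 passed in IP, Sgsm3 with 30 counts in IP shGpr151 and 62 in IP control at -0.72 (-1.40 to -0.07), and 0 in Input. Of 30 tested effectors 0 passed in IP and 1 in Input, Mical1, which takes actin filaments apart, with 33 counts in Input shGpr151 and 18 in Input control at 0.90 (0.03 to 1.81). Of the LRRK2 kinase and phosphatase list 1 gene was tested and did not pass between the treatments.

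Between pulldown and lysate, 12 of 19 GTPase-activating proteins were past 1.5-fold higher in IP in shGpr151 and 8 in control, with 1 lower in each, against 32% of all tested genes higher and 31.5% lower in shGpr151 and 30.5% and 30.8% in control. Effectors had 16 of 30 higher and 4 lower in shGpr151 and 12 and 6 in control, and exchange factors 5 of 20 higher and 6 lower in shGpr151 and 3 and 8 in control. Several of the genes that were lower share the pattern of Rab33b, with far more counts in Input than in IP. Named after their values were seen, 3 of them follow. Rin1, a Rab5 exchange factor, had 117 counts in IP shGpr151 and 10799 in Input shGpr151, and 114 in IP control and 14255 in Input control. Unc13d, a Rab27 effector, had 491 counts in IP shGpr151 and 35066 in Input shGpr151, and 519 in IP control and 48860 in Input control. Dennd5b, a DENN-domain exchange factor, had 311 counts in IP shGpr151 and 5139 in Input shGpr151, and 373 in IP control and 6604 in Input control. Each library pair thus goes the same way. For Unc13d the log2 ratio of Input shGpr151 over Input control was -0.46 (-0.48 to -0.44) and for Rin1 -0.38 (-0.42 to -0.34), beside -0.25 for Rab33b. Other genes with more counts in Input than in IP went both ways. Dennd5b had -0.34 (-0.39 to -0.29) and the TRAPP subunit Trappc2l 0.26 (0.16 to 0.37).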

How the data were processed

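The 12 samples, 4 groups of 3, were sequenced on nanopores with cDNA made by PCR, per the labels' protocols. Among the tools and builds in the submitters' processing notes are minimap2, Salmon, GRCm39 and mm39, without versions or roles. The authors deposited whole-number counts per Ensembl gene, not normalized, and since the lowest is 1, every listed gene has a count in each column. Symbols matched 9061 of 9073 IDs. Whether samples of a group came from separate animals or cultures is not stated.

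The columns of each group were summed, since they differed by little more than counting noise, and 0 columns were left out. Intervals are exact: Clopper-Pearson for ratios and shares and Poisson for CPM; for differences of ratios they are Wald intervals. In edgeR 4.0.16 (R 4.3.3), genes were kept by filterByExpr (minimum count 10; 8312 genes), and group means were fitted with glmQLFit and tested with glmQLFTest, with Benjamini-Hochberg adjustment over all tested genes at 0.05. The common biological coefficient of variation was 1.22%, so these calls, like those of DESeq2 1.42.0, compare libraries. Other settings tried were RLE factors, library totals, no filter, a minimum mean of 20 counts, fits of 2 groups, a block for the replicate number, a 2-fold threshold and leaving out each column. The code was tested on simulated counts.

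The members, lists and rules were chosen with earlier results of these data known. By rule, the genes given with values are Rab3a, Rab7 and Rab13, members past 1.5-fold between treatments, the 4 furthest up and the 4 furthest down in IP against Input in control, the 2 with the highest mean CPM in each role class, and up to 4 members of each pathway list past 1.5-fold between treatments. Others were named after their values were seen. Some genes of the lists are not reported here by name. Promoters were matched by symbol to RefSeq windows on GRCm38.p6. Figures were made with matplotlib 3.10.9.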

Additional observations from a re-analysis of the deposited data

Results flagged for a closer look

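The hairpin ratio differed between the IP and the Input libraries, by the edgeR test of the difference itself on the columns, for 3 Rab genes. For Rab13 the log2 ratio in IP minus that in Input was -1.01, with 76 counts in IP shGpr151, 157 in IP control, 64 in Input shGpr151 and 53 in Input control. For Rab11a it was -0.50, with 733 counts in IP shGpr151, 1013 in IP control, 381 in Input shGpr151 and 302 in Input control. For Rab33b it was 0.58, with 354 counts in IP shGpr151, 355 in IP control, 3456 in Input shGpr151 and 4180 in Input control. The test compares 4 libraries without a replicate check, and 5.41% of all tested genes were called higher and 8.82% lower by it.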

How the results depend on the processing

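On total counts, 42 members were called by edgeR in IP against Input in each treatment, 42 passed 1.5-fold in shGpr151 and 41 in control, and among all tested genes edgeR called 94% in shGpr151 and 94.8% in control and 90.1% passed in shGpr151 and 91.2% in control. The median was 2.48 in shGpr151 and 2.37 in control. This shift follows from the scale itself. With it Rab31 had a log2 ratio of 1.29 in shGpr151 and 1.10 in control, Rab8a 0.97 in shGpr151 and 1.11 in control, and Rab13 1.15 in shGpr151, all negative on the TMM scale. The median of the members between the IP libraries was 0.022 on total counts, against -0.021. With a mean of at least 20 counts, 3 members passed 1.5-fold in Input (Rab3d, Rab8b, Rab21) and 5 were called for the difference of ratios. The share of all genes passing or called under this filter is not given here. These counts hence do not show more change among Rab genes than among others. At 2-fold, 0 members passed in either treatment comparison. DESeq2 called 0 members between the IP libraries, where 28 of 42 had no adjusted p. With 1 column left out, edgeR called 1 to 3 members between the IP libraries and 1 to 3 between the Input libraries, 1 to 2 and 0 to 2 passed 1.5-fold, and the median between the Input libraries lay between -0.11 and 0.040, which changes its sign. Same-numbered columns of the groups compared deviated together by a correlation of -0.009 to 0.020. Since columns of a group differ by little more than counting noise, neither this nor a replicate block can show whether the numbers pair them. With the replicate block, edgeR called 3 members between the IP libraries, 3 between the Input libraries, 23 in IP against Input in shGpr151, 19 in control and 3 for the difference, the same counts as without it. Of the alternatives to these counts and medians, 130 gave a count within 1.5 times the reported one or a median within the 95% interval of the members' median, 22 gave a value outside and 2 turned a median's sign. Counting depth limits the Input ratios most, at a median of 48 counts per member in Input shGpr151 and 56.5 in Input control.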
